A study of Mus musculus with 6 samples.

Results

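The immunoglobulin heavy and light chain genes, 29 of 13320 annotated genes, were measured by 57 of 22626 probe sets on an oligonucleotide array. A probe set was taken where a gene symbol in the platform annotation, alone or among several, started with Igh, Igk, Igl or Igj, leaving out Ighmbp2 and Iglon5. No symbol started with Igj, and the J chain gene is listed there as Jchain. The arrays held total RNA of cells separated with magnets as CD4+CD25+, a way of enriching regulatory T cells (Treg). The Dnmt1 knockout group (3 arrays) carried a floxed Dnmt1 gene and Cre under Foxp3 (fl-DNMT1/Foxp3cre). The wild type group (3 arrays) is labelled only as wild type, and the strain of all arrays is given as C57BL6. The sources used here give neither ages nor the number of mice behind each sample. Foxp3 is the lineage factor of Treg, so that a Cre under its control acts in Foxp3-expressing cells. The labels name neither Cre nor a floxed allele in the controls, so that effects of these and of losing Dnmt1 cannot be told apart. The labels call the samples independent but tie none to an animal, and p-values therefore measure only the spread between these samples, which may be technical. The number of arrays limits the precision.

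An immunoglobulin is built from a pair of identical heavy chains and a pair of identical light chains. The heavy chain constant region sets the class of the antibody: mu for IgM, gamma for IgG and alpha for IgA. A light chain is either kappa or lambda, and each B cell joins its own variable segments to the constant part. B cells make these chains for the cell surface, and plasma cells make them in very large amounts for secretion. Class switching joins an already assembled variable region to another constant region. T cells assemble antigen receptors from other loci, so that immunoglobulin transcripts in a T cell separation are usually read beside markers of B cells and plasma cells. In bulk RNA, fewer cells of a type and less RNA per cell cannot be told apart.

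The members fell into classes by their symbols. The heavy chain had 23 probe sets, of which 3 were annotated to Igha (alpha), 11 to Ighm (mu), 4 to Ighg3 (gamma 3), 1 to a variable segment alone and 4 to several heavy chain genes. The kappa chain had 29 probe sets, with 3 that include the constant region gene Igkc among their symbols, 4 annotated to the Igk locus as a whole and 22 to variable segments. Lambda had 3 probe sets, and Igll1, the lambda-like part of the surrogate light chain of early B cells, had 2. In all, 44 probe sets had 1 symbol and 13 had several. The suffix _x_at, which marks probes that can also bind other sequences, was on 17 of the 57. Related segments share sequence, so that probe sets are not independent measurements and a symbol may not name the transcript bound. Values are log2 expression made with RMA, on which array medians lay between 5.70 and 5.77, and 37 members lay above the median probe set.

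The targeted gene was read first. Both Dnmt1 probe sets were below wild type on each knockout array without passing the test, with differences of -0.53 (SE 0.16, limma adjusted p = 0.162) and -0.72 (SE 0.18, limma adjusted p = 0.113). No source used here places these probe sets inside or outside the floxed exons. Core T cell genes were present in both groups, with list means over 13 genes of 10.55 to 10.88 on the knockout arrays and 10.79 to 10.88 on the wild type arrays. Of the 13 genes, 12 had a negative and 1 a positive difference, and 0 were called. All knockout arrays lay below all wild type arrays for 3 of them and above for 0, against 13.6% and 9.79% of all probe sets. Markers of neutrophils moved with the groups: 9 of 15 rose, against 1.19% of all probe sets. Their list mean was 7.86 to 9.81 on the knockout arrays and 5.89 to 6.25 on the wild type arrays. Their part in the immunoglobulin values was not tested.

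IgA heavy chain transcripts were higher in the knockout, and no other immunoglobulin probe set passed the test. All 3 Igha probe sets rose, by 4.19-fold, 4.45-fold and 4.94-fold. Of the other 54 members, 45 had a positive and 9 a negative difference, and none was called (0 of 54, lowest limma adjusted p = 0.0695). Over all 22626 probe sets, 270 (1.19%) were called higher and 110 (0.486%) lower at an adjusted p under 0.05, 380 (1.68%) in either direction. Of the members, 3 of 57 (5.26%) were called higher. All 3 are annotated to the same gene, Igha, and are not independent, so that this share does not describe the members as a whole. At an unadjusted p under 0.05, 15 members (26.3%) were higher and 0 lower, against 16.6% of all probe sets in either direction. The members were chosen with earlier results known, so that no test over the list is given.

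**Figure D1:**
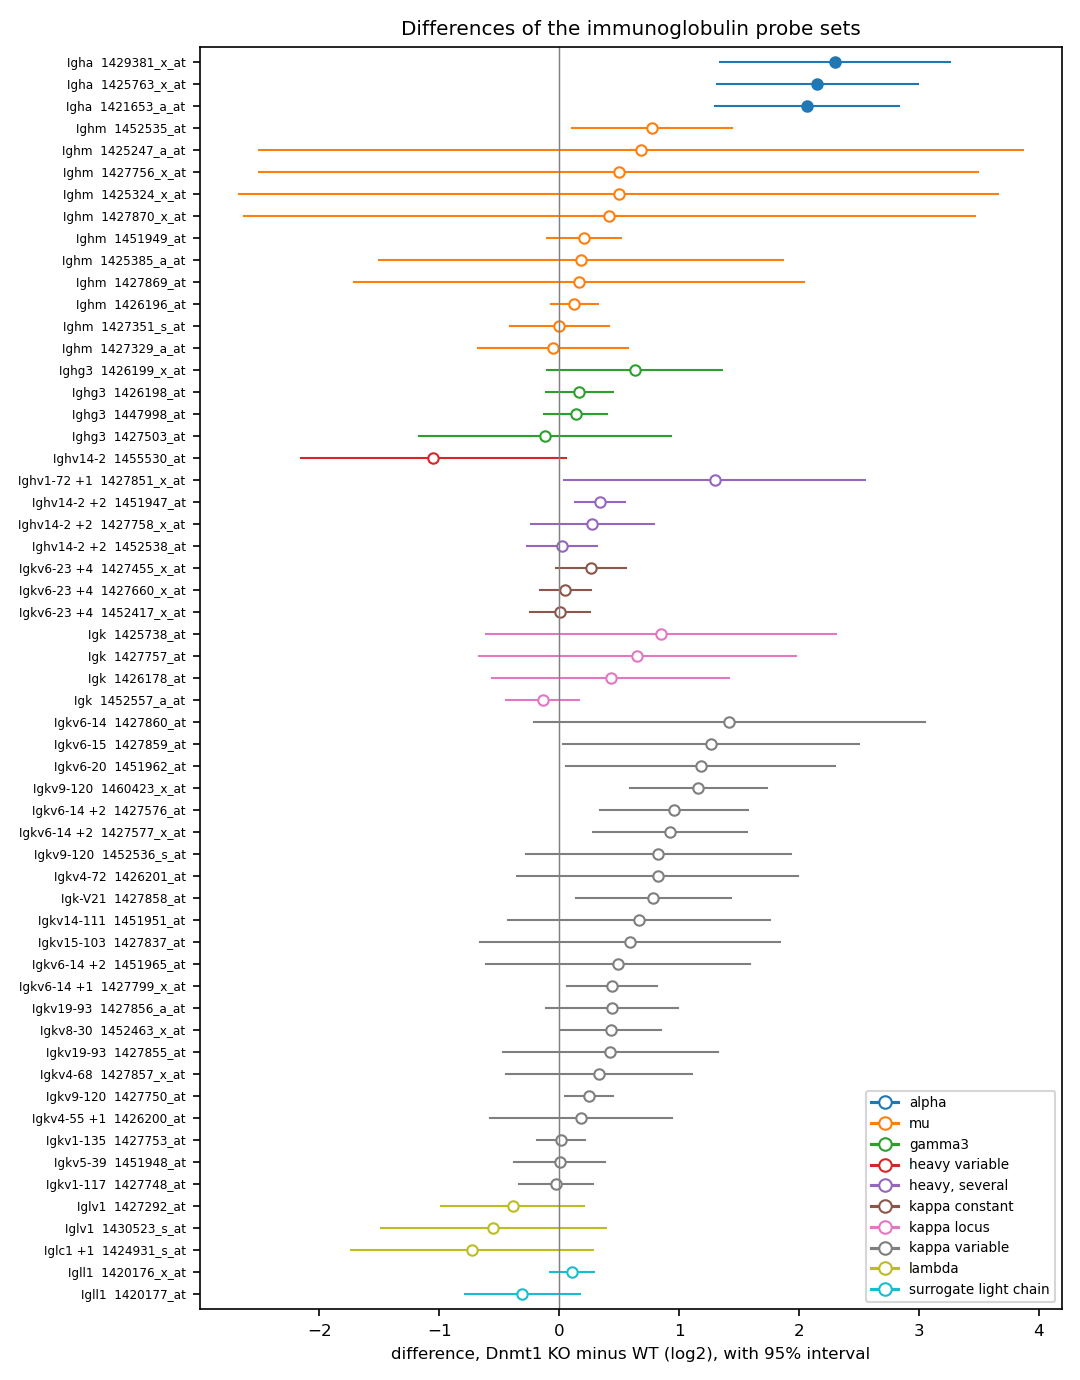
Difference between the Dnmt1 knockout and wild type on the log2 scale (x axis) for each of the 57 probe sets (y axis), with the limma 95% interval as a line, coloured by class. Filled points passed the limma test over all probe sets: these are the 3 Igha probe sets, at 2.07, 2.15 and 2.30, while a plus sign and a number after a symbol count further symbols of that probe set.

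The brightest Igha probe set, 1421653_a_at, had log2 values of 14.47, 13.66 and 13.80 on knockout arrays 1, 2 and 3, against 12.14, 11.18 and 12.41 on wild type arrays 1, 2 and 3. Igha encodes the alpha constant region, which makes IgA, the main antibody of mucosal surfaces. The lowest knockout array lay above the highest wild type array. Its mean was 13.98 ± 0.43 in the knockout and 11.91 ± 0.64 in wild type (SD, n = 3 each), a difference of 2.07 (SE 0.33, limma adjusted p = 0.0290). Probe set 1425763_x_at had 14.41, 13.38 and 13.53 on the knockout arrays, against 11.84, 10.90 and 12.13 on the wild type arrays, a difference of 2.15 (SE 0.36, limma adjusted p = 0.0345). Probe set 1429381_x_at had 13.95, 12.86 and 13.00 on the knockout arrays, against 11.21, 10.10 and 11.59 on the wild type arrays, a difference of 2.30 (SE 0.41, limma adjusted p = 0.0425). All 3 probe sets put the arrays in the same order, with knockout array 1 highest and wild type array 2 lowest. The value of 14.47 was the highest of any probe set on knockout array 1, a range in which array signals may be compressed.

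The Igha calls did not hold in every alternative fit. Without wild type replicate 1, 2 or 3, no Igha probe set passed, with differences of 1.71 to 2.62 and limma adjusted p of 0.066 to 0.134. Without knockout replicate 3, none passed either (adjusted p from 0.0728 to 0.0909), while 1429381_x_at alone was lost without knockout replicate 1 (0.0538) or 2 (0.0609). The number of probe sets called higher over the whole array was 39, 68 and 24 without wild type replicate 1, 2 and 3, and 493, 241 and 144 without knockout replicate 1, 2 and 3, against 270 with all arrays. With a variance trend and robust estimation, the 3 differences had adjusted p of 0.106, 0.120 and 0.140. The direction was positive in all 13 alternative fits of each Igha probe set.

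**Figure D2:**
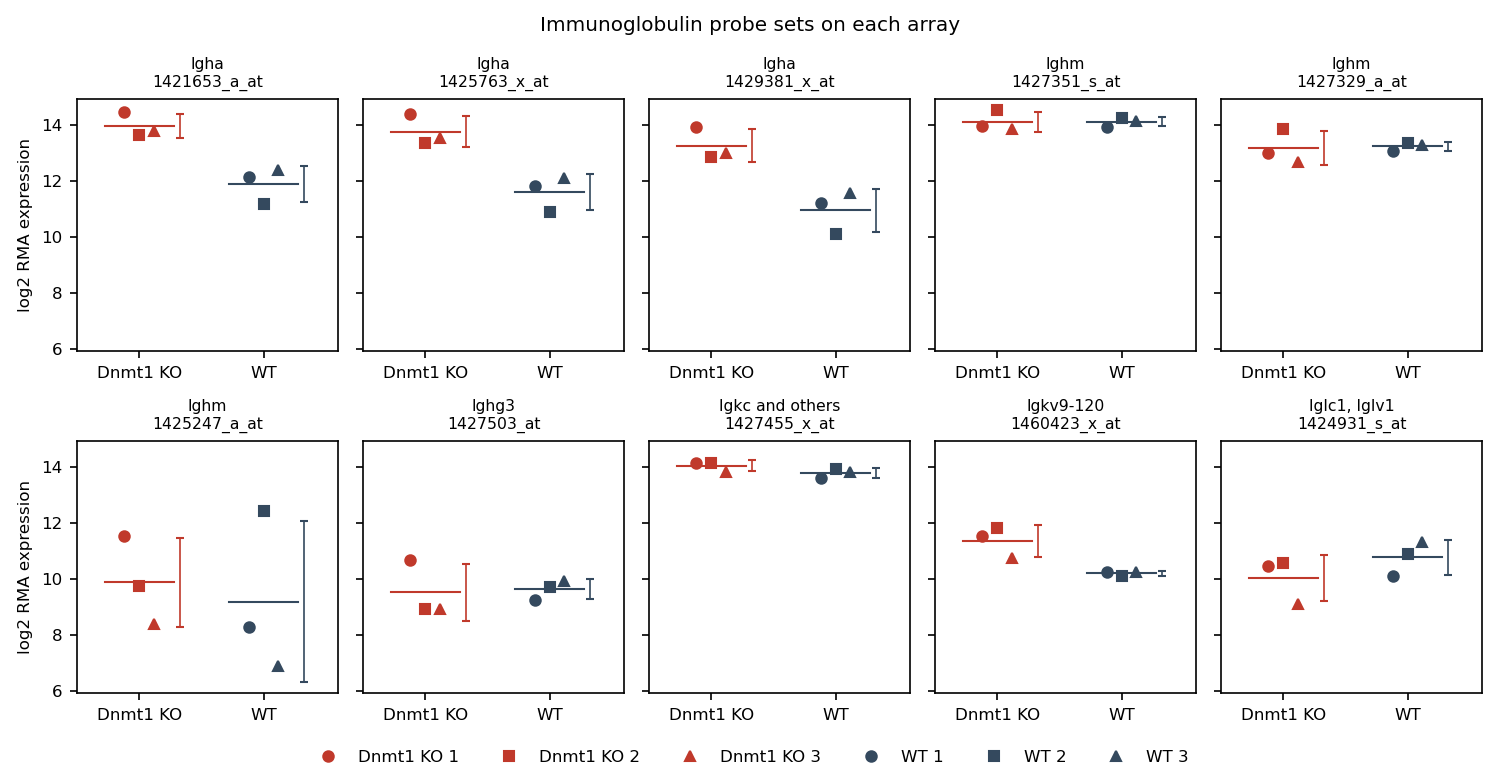
Log2 RMA expression (y axis, the same scale in all panels) of 10 immunoglobulin probe sets on the Dnmt1 knockout arrays (red, left) and wild type arrays (dark, right), with the replicate number as marker shape, the group mean as a line and the SD as a bar. The Igha groups do not overlap, the first pair of Ighm panels lies near 13 to 14.5 on all arrays, and Ighm 1425247_a_at spreads from 6.89 to 12.42 within wild type.

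The mu chain did not differ by the test on any of its 11 probe sets. Ighm encodes the constant region of IgM, the first class a B cell makes. Its brightest probe set, 1427351_s_at, had 13.98, 14.54 and 13.88 on the knockout arrays, against 13.95, 14.27 and 14.17 on the wild type arrays. The groups overlapped, and the difference was 0.0029 with a 95% interval of -0.41 to 0.41 (limma adjusted p = 0.997). The sign of so small a value turned under 5 alternatives. The next brightest, 1427329_a_at, had 13.02, 13.87 and 12.70 on the knockout arrays, against 13.07, 13.38 and 13.29 on the wild type arrays. Its difference was -0.049, with an interval of -0.68 to 0.58 (limma adjusted p = 0.949).

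Another 6 probe sets annotated to Ighm varied far more among wild type arrays than these, each with a wild type SD above 1. Probe set 1425247_a_at, singled out after its values were seen, had 11.53, 9.74 and 8.38 on the knockout arrays, against 8.29, 12.42 and 6.89 on the wild type arrays. Wild type array 2 was the highest of all 6 arrays there, and the interval of the difference ran from -2.50 to 3.87. In 1427870_x_at the values were 11.83, 10.14 and 8.87 on the knockout arrays and 9.02, 12.95 and 7.60 on the wild type arrays. Wild type array 2 was also the highest and wild type array 3 the lowest array in 1427756_x_at, 1425324_x_at and 1427869_at. Probe set 1425385_a_at had 12.66, 11.85 and 10.81 on the knockout arrays and 9.91, 12.60 and 12.26 on the wild type arrays. Probe sets of 1 symbol thus disagreed on how the arrays compare, by a range of up to 5.53 within wild type, against 0.32 in 1427351_s_at. Of the dimmer ones, 1452535_at had 7.87, 7.79 and 6.80 on the knockout arrays and 6.36, 6.86 and 6.91 on the wild type arrays, a difference of 0.78 (limma adjusted p = 0.237). The other 2, 1451949_at and 1426196_at, reached at most 4.24 on any array.

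The gamma 3 constant region, which makes the IgG3 class, had 4 probe sets, none of which was called. The brightest, 1427503_at, had 10.70, 8.95 and 8.95 on the knockout arrays, against 9.27, 9.72 and 9.95 on the wild type arrays. Knockout array 1 was the highest and the other 2 knockout arrays were the lowest, so that the groups overlapped, with a difference of -0.12 and an interval of -1.16 to 0.93. That sign turned with 1 array left out in 3 of 6 cases. The other gamma 3 probe sets were dim, between 2.61 and 4.62, with differences of 0.14 to 0.63. The variable segment Ighv14-2 (1455530_at) had 6.53, 7.22 and 7.81 on the knockout arrays, against 7.41, 9.24 and 8.05 on the wild type arrays. It had the lowest difference of all members, -1.05 (SE 0.48, limma adjusted p = 0.321), and the groups overlapped. Of the 4 probe sets with several heavy chain symbols, 1427851_x_at (Ighv1-72 and Ighm) had 7.78, 5.60 and 5.88 on the knockout arrays, against 4.89, 4.79 and 5.70 on the wild type arrays, a difference of 1.30 (limma adjusted p = 0.288). The other 3, annotated to Ighv14-2, Ighg3 and Ighm together, had differences of 0.026 to 0.34.

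Kappa constant region signal was high and close between the groups. Knockout array 1 was the highest knockout array for 15 of 22 kappa variable probe sets, against 35.6% of all probe sets. Igkc encodes the constant part shared by all kappa chains. The brightest probe set with Igkc, 1427455_x_at, had 14.17, 14.17 and 13.85 on the knockout arrays, against 13.61, 13.94 and 13.84 on the wild type arrays. Its difference was 0.27 with an interval of -0.026 to 0.56 (limma adjusted p = 0.343). The other 2, 1427660_x_at and 1452417_x_at, differed by 0.050 (interval -0.16 to 0.26) and 0.0092 (interval -0.24 to 0.26). The upper ends of these intervals, 0.56, 0.26 and 0.26, lie below the lower ends of those of the 3 Igha probe sets, 1.30, 1.31 and 1.35. These intervals are not adjusted for the number of probe sets and do not test the chains against each other. The brightest Igha minus the brightest Igkc probe set was 0.30, -0.51 and -0.045 on the knockout arrays, against -1.47, -2.75 and -1.43 on the wild type arrays. An exact permutation test over the arrays gave p = 0.1, the smallest it can give, so that it cannot decide. Near the top of the array's range, differences may be compressed, and the levels of Igha reached the same range.

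Of the 22 kappa variable probe sets, 21 had a positive difference, with a median of 0.54, and 0 were called. The brightest, Igkv8-30 (1452463_x_at), had 13.34, 13.36 and 12.72 on the knockout arrays, against 12.54, 12.82 and 12.76 on the wild type arrays, a difference of 0.43 (limma adjusted p = 0.287). Igkv9-120 (1460423_x_at), singled out for the lowest adjusted p outside Igha, had 11.54, 11.82 and 10.74 on the knockout arrays, against 10.25, 10.12 and 10.25 on the wild type arrays. Its groups did not overlap, and the difference was 1.16 (SE 0.25, limma adjusted p = 0.0695). A second probe set of this gene, 1452536_s_at, had 8.11, 6.78 and 5.87 on the knockout arrays and 6.02, 6.18 and 6.08 on the wild type arrays, where the groups overlapped. Another, 1427750_at, was dim, with 3.40, 3.35 and 3.18 on the knockout arrays and 3.07, 3.09 and 3.03 on the wild type arrays. Its groups did not overlap (difference 0.25, limma adjusted p = 0.208). Members of the Igkv6 family spread widely within the knockout. Igkv6-14 (1427860_at) had 10.37, 8.55 and 7.31 on the knockout arrays, against 6.61, 7.92 and 7.44 on the wild type arrays. Igkv6-15 (1427859_at) had 7.13, 4.87 and 5.02 on the knockout arrays, against 4.38, 4.47 and 4.36 on the wild type arrays. The lowest knockout array of this probe set lay above its highest wild type array. Igkv6-20 (1451962_at) had 7.44, 6.86 and 5.24 on the knockout arrays, against 5.15, 5.44 and 5.42 on the wild type arrays. Their differences were 1.42, 1.27 and 1.18, with limma adjusted p of 0.363, 0.292 and 0.281. Among the 4 probe sets of the Igk locus, differences ran from -0.13 to 0.85. The brightest, 1425738_at, had 11.07, 9.53 and 8.73 on the knockout arrays and 7.89, 9.57 and 9.33 on the wild type arrays.

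Lambda chain probe sets pointed the other way, without a call. Iglc1 encodes a lambda constant region and Iglv1 a lambda variable segment. The brightest, 1424931_s_at (Iglc1 and Iglv1), had 10.49, 10.56 and 9.11 on the knockout arrays, against 10.11, 10.89 and 11.33 on the wild type arrays, a difference of -0.73 with an interval of -1.73 to 0.28 (limma adjusted p = 0.452). For Iglv1 alone, 1430523_s_at had 10.38, 10.73 and 9.13 on the knockout arrays, against 10.24, 10.51 and 11.12 on the wild type arrays, a difference of -0.55. The dimmer 1427292_at had a difference of -0.39, and the groups overlapped in all 3. Igll1 had a probe set at 5.91, 6.0 and 5.91 on the knockout arrays, against 5.84, 5.91 and 5.75 on the wild type arrays (1420176_x_at, difference 0.11, limma adjusted p = 0.552). The other Igll1 probe set, 1420177_at, differed by -0.30.

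Most members had a positive difference, and many were highest on the same arrays within each group. The difference was positive for 48 of 57 members (84.2%), against 45.2% of all probe sets. Knockout array 1 was the highest of the knockout arrays for 38 of 57 members (66.7%), against 35.6% of all probe sets. Wild type array 2 was the highest of the wild type arrays for 35 of 57 (61.4%), against 33.9% of all probe sets. Not all classes followed this: wild type array 2 was the lowest wild type array for all 3 Igha probe sets, and knockout array 2 was the highest knockout array for all 3 lambda probe sets. The mean of the members relative to their wild type means was 1.00, 0.44 and -0.10 on knockout arrays 1, 2 and 3, against -0.29, 0.34 and -0.049 on wild type arrays 1, 2 and 3. The median SD of a member was 0.59 within the knockout and 0.23 within wild type, against 0.12 and 0.099 over all probe sets. The median difference over the 57 members was 0.42, against -0.019 over all probe sets. Without knockout replicate 1 the members' median was 0.060, without knockout replicate 3 it was 0.64, and without wild type replicate 1 it was 0.22. All knockout arrays lay above all wild type arrays for 11 of 57 members (19.3%), against 9.79% of all probe sets, and below them for 0, against 13.6%.

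**Figure D3:**
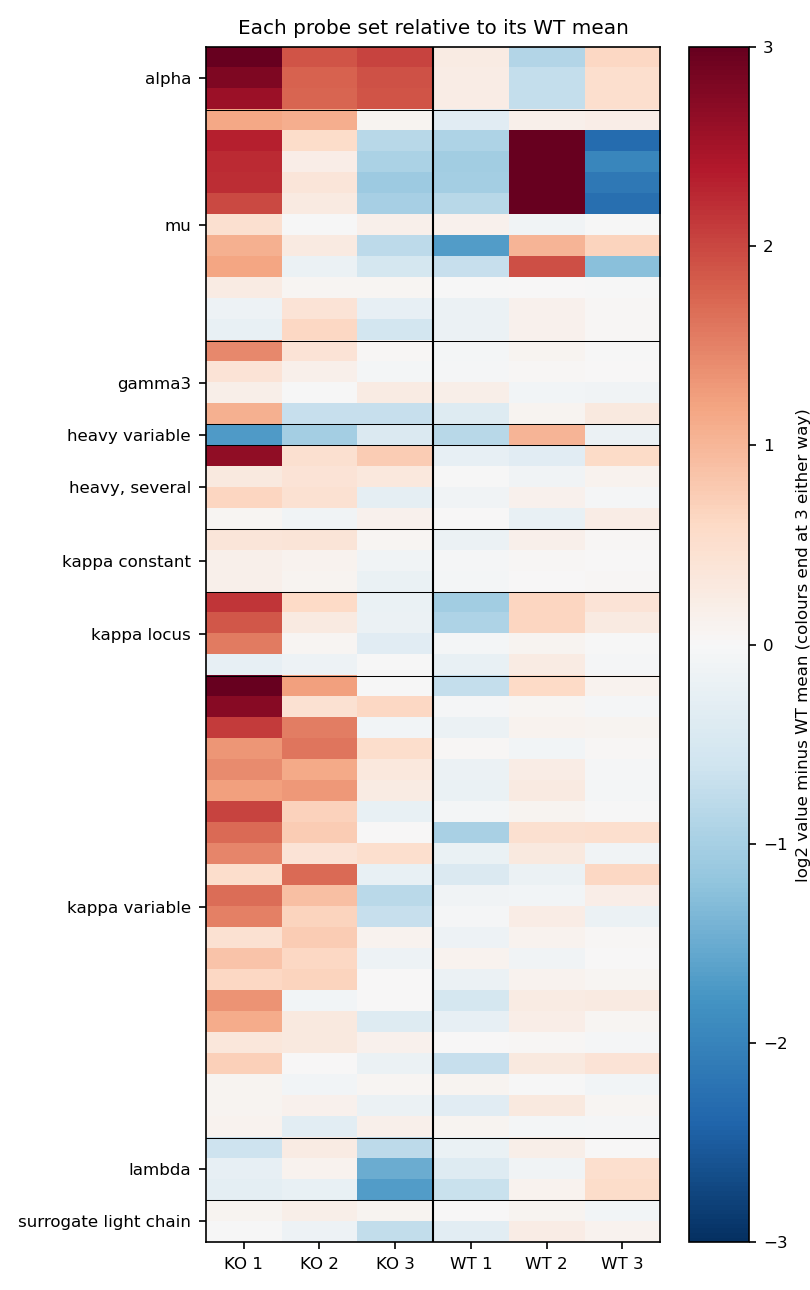
Log2 value of each of the 57 immunoglobulin probe sets (rows, grouped by class) on each array (columns, Dnmt1 knockout left of wild type) minus that probe set's wild type mean, with colours ending at 3 in either direction. Igha is red on all 3 knockout arrays, most kappa variable segments are reddest on knockout arrays 1 and 2, and a group of mu probe sets is darkest on wild type array 2.

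Markers of B cells were present in both groups, and none passed the test. Of 20 measured B cell identity genes, such as the surface protein genes Ms4a1 (CD20) and Cd22, 0 were called. Over all probe sets, 1.19% were called higher and 0.486% lower, so that 0 of 20 is near those shares. Of the 20 genes, 7 had a positive and 13 a negative difference, and their median difference was -0.089. Ms4a1 had 7.83, 9.52 and 9.05 on the knockout arrays, against 8.86, 10.16 and 9.09 on the wild type arrays. The largest of the 7 positive differences were 0.50 for Cr2 and 0.46 for Blk (limma adjusted p = 0.738 and 0.528). The genes nearest the threshold were the follicular homing receptor gene Cxcr5, with a difference of -0.61 (limma adjusted p = 0.0996), and the B cell transcription factor gene Spib, with -0.77 (adjusted p = 0.401). The mean of the list was 7.14, 7.98 and 7.88 on knockout arrays 1, 2 and 3, against 7.43, 8.42 and 7.55 on wild type arrays 1, 2 and 3. Wild type array 2 was the highest wild type array for 20 of the 20 genes, and knockout array 1 the lowest knockout array for 17 of them. The array with the highest Igha signal thus had the lowest mean of B cell markers. Wild type array 2 had the lowest Igha signal and the highest mean of B cell markers. The remaining arrays did not run opposite: knockout arrays 2 and 3 lay above wild type arrays 1 and 3 in both Igha signal and this mean. Of 10 signal chains of the B cell receptor, including Cd79a and Cd79b, which carry its signal, 0 were called, and the list means were 6.85 to 7.63 on the knockout arrays and 6.96 to 7.79 on the wild type arrays. The nearest to the threshold were the signalling enzyme gene Plcg2 at 0.46 (limma adjusted p = 0.461) and the co-receptor gene Cd81 at -0.17 (0.576).

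Of 21 measured plasma cell genes, 3 rose, 0 fell and 18 did not pass, with 15 positive and 6 negative differences and a median of 0.31. Over all probe sets, 1.19% were called higher and 0.486% lower. These shares include dim probe sets, while the list takes each gene by its brightest probe set. All knockout arrays lay above all wild type arrays for 7 of the 21 genes and below them for 1. Over all probe sets these shares were 9.79% and 13.6%. Those that rose were Prdm1, which encodes Blimp1, a factor of plasma cells and of effector T cells, the elongation factor gene Ell2, which in B lineage cells favours secreted heavy chain transcripts, and Creld2, of the endoplasmic reticulum stress response. Prdm1 had 7.71, 7.85 and 7.87 on the knockout arrays, against 7.36, 7.36 and 7.35 on the wild type arrays (difference 0.45, limma adjusted p = 0.0402). Ell2 had 7.06, 6.90 and 6.83 on the knockout arrays, against 6.18, 6.47 and 6.34 on the wild type arrays (difference 0.60, limma adjusted p = 0.0402). Creld2 had 8.57, 8.51 and 9.05 on the knockout arrays, against 7.89, 7.99 and 7.97 on the wild type arrays (difference 0.77, limma adjusted p = 0.0484). These genes are also expressed outside plasma cells. Derl3, of protein quality control in the endoplasmic reticulum, had 7.75, 7.34 and 7.33 on the knockout arrays, against 6.35, 6.82 and 6.77 on the wild type arrays, where the groups did not overlap but the test was missed (difference 0.83, limma adjusted p = 0.0564). Xbp1, a transcription factor gene of secretory cells, had 11.41, 11.35 and 10.82 on the knockout arrays, against 10.58, 10.90 and 10.75 on the wild type arrays (difference 0.45, limma adjusted p = 0.235). The surface marker genes Tnfrsf17 (BCMA), Sdc1 (CD138) and Tnfrsf13b did not pass either. Tnfrsf17 had 6.03, 5.02 and 4.54 on the knockout arrays and 4.56, 4.47 and 4.64 on the wild type arrays. Sdc1 had 6.78, 6.30 and 5.92 on the knockout arrays, against 5.78, 6.33 and 6.02 on the wild type arrays. Tnfrsf13b, among the 6 with a negative difference, had 8.54, 8.29 and 8.12 on the knockout arrays, against 8.72, 8.92 and 8.73 on the wild type arrays. Every knockout array lay below wild type there (difference -0.47, limma adjusted p = 0.116). The list mean was 8.27, 8.12 and 8.01 on knockout arrays 1, 2 and 3, against 7.76, 8.02 and 7.91 on the wild type arrays. The part of either list in the Igha result was not tested.

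Jchain, which links IgA and IgM units into polymers, is outside the members by its symbol and was looked up after the values were seen. It had 13.10, 12.77 and 11.98 on the knockout arrays, against 12.03, 12.40 and 12.34 on the wild type arrays. The groups overlapped, with a difference of 0.36 and an interval of -0.26 to 0.97 (limma adjusted p = 0.546). Of 16 genes of immunoglobulin locus rearrangement and class switching, 0 were called, with Msh6, of DNA mismatch repair, nearest at -0.45 (limma adjusted p = 0.0904) and Prkdc, of end joining, next at -0.32 (0.161). Of 11 receptors for immunoglobulin, 0 were called, the nearest being the IgE receptor gene Fcer1a at 0.60 (limma adjusted p = 0.0564) and the neonatal Fc receptor gene Fcgrt at 0.61 (0.0913). Of these 11, 8 had a positive and 3 a negative difference. All knockout arrays lay above all wild type arrays for 4 of them and below for 0, against 9.79% and 13.6% of all probe sets. Of 10 early B cell genes 0 were called, with Kit at 1.17 (limma adjusted p = 0.0908) and Spn at 0.25 (0.241). Of 14 Treg genes, Nrp1, Ikzf2 and Il2ra fell, with 0 rising, and 11 had a negative and 3 a positive difference. All knockout arrays lay below all wild type arrays for 7 of the 14 and above for 1, against 13.6% and 9.79% of all probe sets. Foxp3 had a difference of -0.66 (limma adjusted p = 0.151). Of 16 monocyte and macrophage genes, Slc40a1 and Cd14 rose, with 15 positive and 1 negative difference and a median of 0.94. All knockout arrays lay above all wild type arrays for 5 of the 16 and below for 0. Of 8 dendritic cell genes 0 were called, with 6 positive and 2 negative differences. Over all probe sets, 1.19% were called higher and 0.486% lower.

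**Figure D4:**
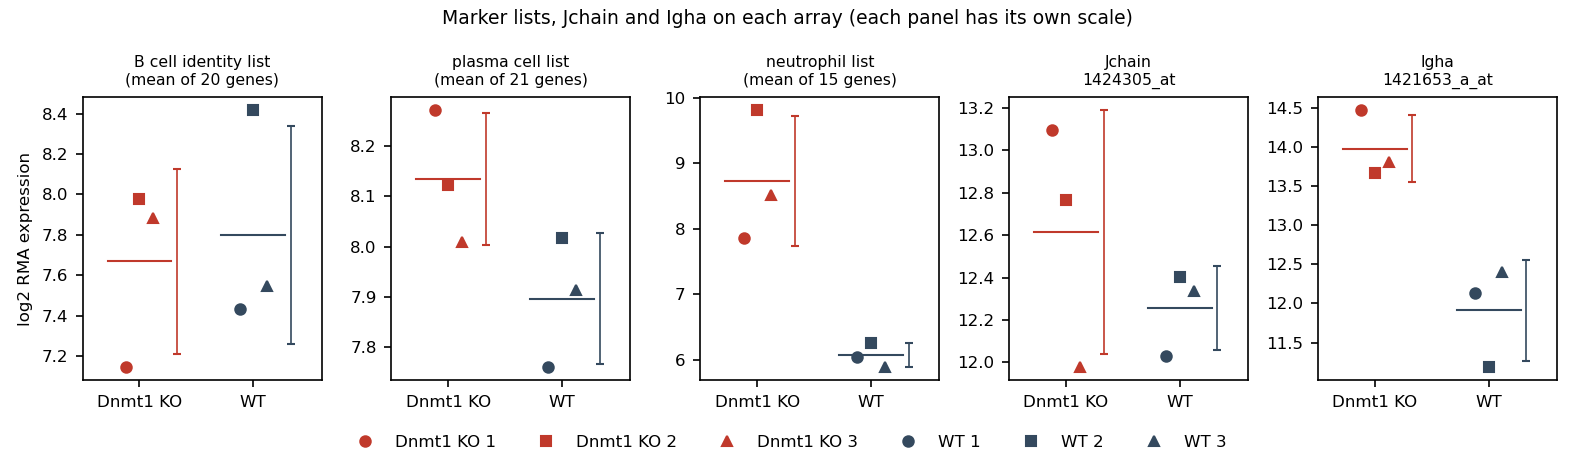
Log2 RMA expression (y axes, each panel with its own scale) on the Dnmt1 knockout arrays (red, left) and wild type arrays (dark, right): the mean of the B cell identity, plasma cell and neutrophil lists, then Jchain and the brightest Igha probe set, with group mean and SD. Knockout array 1 is lowest for the B cell list and highest for the plasma cell list, Jchain and Igha. Wild type array 2 is highest for the B cell list and lowest for Igha. Knockout arrays 2 and 3 lie above wild type arrays 1 and 3 for both the B cell list and Igha.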

How the data were processed

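The deposited values are log2 expression per probe set, made by the authors with RMA, per the submitters' processing notes. No source used here gives its version or settings. RMA makes the arrays' distributions alike, which removes any change in total RNA per cell and can compress signals at both ends of the range. Groups and replicate numbers follow the sample titles. Of 22690 probe sets, 64 controls were left out. Probe sets were named through the platform's annotation, with symbols checked against a RefSeq table of assembly GRCm38.p6. It held 28 of the 29 member genes and changed 0 symbols, and no coordinates from it are used.

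Groups were compared with limma 3.58.1 (lmFit, eBayes) in R 4.3.3, probe set by probe set, with no filter. Tests are two-sided, with Benjamini-Hochberg adjustment over 22626 probe sets, called under 0.05. Differences are knockout minus wild type. Marker genes were represented by their brightest probe set. Members, marker lists and tests were chosen with earlier results of these data known. By rule, named genes are called members, the brightest probe set of each class, the 2 highest and 2 lowest differences, Dnmt1 and Foxp3. Per marker list, they include up to 4 called genes or the 2 with the lowest p. The other members are named for their pattern over arrays, after their values were seen. Jchain, Ms4a1, Blk, Cr2, Derl3, Xbp1, Tnfrsf17, Sdc1 and Tnfrsf13b were also named after their values were seen. The rule covers every marker list, but no gene of the core T cell, neutrophil and dendritic cell lists is named. Samples of the same replicate number did not deviate together (correlations of -0.076, 0.11 and -0.010). Fits were tested on simulated data. Alternatives were other scalings, a filter, other variance models, array weights, a replicate block and leaving out each array. Plots used matplotlib 3.10.9 (Python 3.11.15).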

Additional observations from a re-analysis of the deposited data

How the results depend on the processing

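The count of 3 called immunoglobulin probe sets was 3 under quantile normalisation, median centring, cyclic loess, without the dimmest 40% of probe sets, with array weights and with the replicate block, in each case the 3 of Igha. It was 0 with trend and robust variance, and with 1 array left out it ran from 0 to 4. The 4 without knockout replicate 3 were kappa variable probe sets (Igkv9-120, Igkv6-20 and 2 of the Igkv6-14 group). No fit called a member lower (0, limma, with 0 at an unadjusted p under 0.05 in the full fit). The members' median difference of 0.42 ran from 0.060 to 0.64 with 1 array left out and from 0.20 (the 20 probe sets of Igha, Ighm, Ighg3 and Igll1 alone, without any that lists a variable segment) to 0.49 under the other settings. Over all probe sets, 270 higher and 110 lower became 166 and 52 with the replicate block. The lower count was 182 with trend and robust variance and 169 with array weights. With 1 array left out, counts ran from 24 to 493 higher and from 5 to 263 lower.

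The near-zero difference of Ighm 1427351_s_at turned to -0.010 under quantile normalisation, -0.026 under median centring and -0.055 with array weights. With 1 array left out it ran from -0.20 (without knockout replicate 2) to 0.13, and was -0.087 without wild type replicate 1. That of Ighg3 1427503_at turned to 0.18 without knockout replicate 2 or 3 and to 0.035 without wild type replicate 3, within a range of -0.70 to 0.18. The cause was not tested. The replicate block changed no call on a member. Detection calls are not used here, and 20 members at or below the median level may lie near the floor of the values.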
